A study of Mus musculus with 6 samples.

Results

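The genes described here encode proteins of the spliceosome and of the families that bind pre-mRNA around it. They were chosen by symbol from the deposited mRNA table: every gene whose symbol begins with Snrp, with Sf3a or Sf3b, with Srsf and a digit, or with Hnrnp, leaving out symbols that contain -ps. This rule found 52 of the 22298 genes in the table. By role they fall into 8 Sm core genes, 2 genes specific to the U1 particle, 2 specific to the U2 particle, 9 subunits of the SF3A and SF3B complexes, 11 SR proteins and 20 hnRNP proteins.

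RNA was sequenced from GC-1spg, an immortalised line derived from mouse spermatogonia, in 3 libraries of a control siRNA (si-NC) and 3 libraries of an siRNA against METTL3 (si-METTL3). METTL3 is the catalytic subunit of the enzyme that writes N6-methyladenosine (m6A) on RNA. All 6 libraries came from cells grown in 10% serum, transfected at 60% density and collected 48 h later. The labels print the same sequence for both siRNAs and call the control libraries untreated, and no library of untransfected cells was analysed here. Nothing in the labels says whether the 3 libraries of a group came from separate cultures, so p-values measure the spread between these libraries, which may be technical. In bulk RNA of this kind, fewer cells of a type and less RNA per cell cannot be told apart.

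The libraries held between 22146057 and 37698956 mRNA counts, and the 52 genes took 1.14% to 1.21% of them. Mettl3 had 606, 578 and 683 counts in the control libraries against 142, 134 and 136 after knockdown, which edgeR's quasi-likelihood test put at -1.79 on the log2 scale (SE 0.14, adjusted p = 0.000579). Of 21 spermatogonial markers, 5 (Nanos2, Sall4, Sohlh1, Tex101 and Utf1) had no count in any library, and the germ cell markers Dazl, Ddx4 and Stra8 stayed between 0 and 0.28 counts per 1000000 (CPM). The markers with most counts were Ccnd2 (86.6 to 142 CPM), Uchl1 (35.0 to 40.2), Foxo1 and Etv5, none of them particular to germ cells. Summed markers of 5 other cell types or tissues were higher in every si-METTL3 library than in any si-NC library, and the spermatogonial list was lower (226, 186 and 209 CPM against 239, 227 and 242). Of the tested genes, edgeR called 3 of 9 Sertoli genes higher and 2 lower, 1 of 12 brain genes and 1 of 8 spermatogonial genes higher, and 0 of 16 lung, 5 blood and 11 macrophage and endothelial genes in either direction. Sertoli cell genes stood at 368 to 399 CPM in si-NC and 594 to 631 in si-METTL3. For lung genes the sums were 87.7, 79.0 and 154 against 205, 207 and 168. Blood genes summed to 0.84, 1.04 and 12.5 against 20.3, 17.2 and 13.4, macrophage and endothelial genes to 20.2, 21.02 and 42.5 against 55.9, 55.7 and 44.6, and brain genes to 85.9, 105 and 89.7 against 110, 117 and 118. The Leydig cell list held 2.80 to 4.65 CPM, with Cyp17a1, Hsd3b1 and Insl3 at 0. Their part in the results below was not tested.

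Introns are removed from pre-mRNA by the spliceosome, which assembles from small nuclear ribonucleoproteins (snRNPs). Sm proteins form a ring around the U1, U2, U4 and U5 RNAs. The U1 particle binds the 5′ splice site, and the U2 particle binds the branch point with the help of SF3A and SF3B. SR proteins bind exonic sequences and mostly favour the use of nearby splice sites, while hnRNP proteins coat nascent transcripts and often act against it. SR genes are also known to carry noncoding alternative transcripts that limit their own output. m6A is known to be read in part through hnRNP proteins, among them those encoded by Hnrnpc and Hnrnpa2b1.

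Most snRNP and SF3 genes, 19 of 21, had negative log2 fold changes in si-METTL3 against si-NC, and most hnRNP genes, 15 of 20, positive ones. Of all 13082 tested genes, 6142 had negative and 6940 positive values. Of the 51 genes with enough counts to test, 10 fell and none rose (edgeR, p adjusted by Benjamini-Hochberg over 13082 tested genes, threshold 0.05). At an unadjusted p under 0.05 there were 18 lower and 4 higher, where 2455 and 2215 of all 13082 tested genes were. DESeq2 called 12 lower and 0 higher, and its share over all tested genes is not given here. The 10 lower genes were 19.6% of those tested, where 10.2% of all tested genes fell and 8.67% rose. Of these 10, 9 belonged to the 21 snRNP and SF3 genes, 1 to the 20 hnRNP genes and 0 to the 10 tested SR genes. Median log2 fold changes were -0.29 for the snRNP and SF3 genes together, -0.04 for SR genes and 0.14 for hnRNP genes, against 0.03 for all tested genes. These 3 medians kept their sign in all 16 fits that were made, ranging from -0.36 to -0.20, from -0.12 to -0.002 and from 0.06 to 0.19. The fits reuse the same 6 libraries and are not independent of each other. In the fit corrected for length and GC content, the median of all tested genes was -0.04. The difference between the role groups was not tested. Srsf12, an SR gene, had 0 counts in all libraries and was the member that could not be tested.

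**Figure D1:**
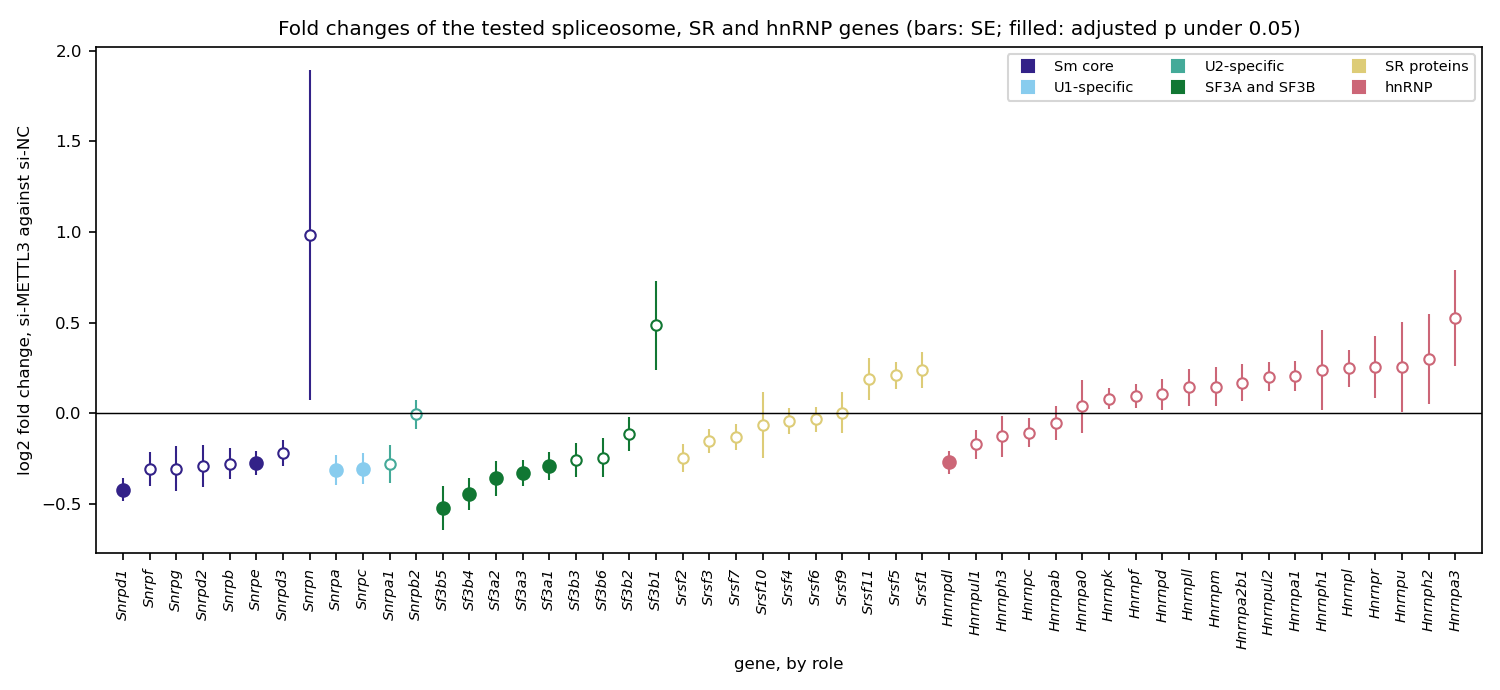
Log2 fold change of each tested gene (y axis), si-METTL3 against si-NC, with genes on the x axis ordered and coloured by role. Bars are standard errors and filled points passed an adjusted p of 0.05: 9 of the 10 filled points are snRNP or SF3 genes, and 15 of the 20 hnRNP points lie above 0.

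The 10 calls were small in size, between -0.27 and -0.52 on the log2 scale, and most were lost when a library was left out. Snrpd1 was the only one of them called with each of the 6 libraries left out in turn. Sf3b4 was called in 3 of those 6 fits, Sf3a3, Hnrnpdl and Sf3b5 in 2, and Snrpe, Snrpa, Sf3a1, Sf3a2 and Snrpc in 1. Counts of lower genes ran from 1 with si-NC replicate 1 or si-METTL3 replicate 3 left out, through 2 with si-METTL3 replicate 1 or 2 left out and 4 with si-NC replicate 3 left out, to 21 with si-NC replicate 2 left out. Without si-NC replicate 2, 21 genes were lower (41.2% of 51, where 18.9% of all tested genes were) and 10 were higher (19.6%, where 17.9% were). For the other fits that left out a library, shares of all tested genes are not given here. Calls lost in them cannot be told apart from a loss over all genes. The authors' deposited table lists 12 of the genes as lower and 0 as higher at an adjusted p under 0.05: the same 10 with Snrpb and Snrpf.

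A second way to read the libraries is whether the groups overlap in CPM, from here on scaled to each library's effective size. In 19 of the 51 genes all si-METTL3 libraries lay below all si-NC libraries, 37.3% against 21.3% of all tested genes. In 6 genes they lay above, 11.8% against 20.2% of all tested genes: Snrpn, Srsf5, Hnrnpf, Hnrnpk, Hnrnpl and Hnrnpul2. The 19 lower ones included 15 of the 21 snRNP and SF3 genes.

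Among the Sm core genes, Snrpd1, which encodes the ring protein SmD1, fell by 0.42 on the log2 scale (SE 0.06, adjusted p = 0.0076), a change of -25.4%. Its CPM were 92.8, 89.2 and 93.7 in the control libraries against 67.0, 69.2 and 69.4 after knockdown. The 3 libraries of each group lay close together and the groups were far apart, in deposited FPKM 93.2 ± 0.95 against 69.9 ± 0.38 (SD, n = 3). Snrpe, encoding SmE, fell by 0.28 (SE 0.07, adjusted p = 0.0302). It had 158, 154 and 169.6 CPM in the control libraries against 134, 131 and 132 after knockdown.

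The other Sm genes moved by similar amounts without passing the test. Snrpb, encoding SmB and the Sm core gene with the highest mean FPKM (248), had 393, 344 and 416 CPM in the control libraries against 328, 316 and 306 after knockdown, a log2 fold change of -0.28 (SE 0.08, adjusted p = 0.0591). Snrpf, Snrpg, Snrpd2 and Snrpd3, encoding SmF, SmG, SmD2 and SmD3, had log2 fold changes between -0.31 and -0.22. In all 7 Sm genes other than Snrpn, every si-METTL3 library lay below every si-NC library. Summed over the Sm core, FPKM was 848.6 ± 55.8 in si-NC and 702.7 ± 19.0 in si-METTL3 (SD, n = 3), and the 3 libraries of each group did not overlap.

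Snrpn is the Sm gene of neurons and of an imprinted locus, and it was almost absent. It had 0, 35 and 50 counts in the control libraries against 57, 39 and 36 after knockdown, at most 0.77 FPKM. Its log2 fold change of 0.98 carried an SE of 0.91 (adjusted p = 0.467), and without si-NC replicate 1, the library at 0, it was 0.39. Snurf, which is read from the same transcript unit, had 1 count in all 6 libraries together, and the sources used here do not say how reads shared by the 2 genes were divided.

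Both U1-specific genes fell. Snrpa, encoding the U1 protein that binds a stem loop of the U1 RNA, had 150.4, 137 and 164 CPM in the control libraries against 123, 122 and 117 after knockdown (log2 fold change -0.32, SE 0.08, adjusted p = 0.039). Snrpc, encoding the U1 protein that stabilises pairing with the 5′ splice site, had 157, 136 and 164 CPM in the control libraries against 123, 126 and 120.3 after knockdown (-0.31, SE 0.09, adjusted p = 0.0469). In each gene the lowest si-NC library was replicate 2, and it still lay above every si-METTL3 library. The U1-specific genes summed to 256.1 ± 20.7 FPKM in si-NC and 209.3 ± 6.73 in si-METTL3.

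Neither U2-specific gene passed the test. Snrpa1, whose protein binds the U2 RNA, had 94.6, 80.0 and 95.3 CPM in the control libraries against 80.7, 66.6 and 74.6 after knockdown (log2 fold change -0.28, SE 0.11, adjusted p = 0.104). Its groups overlapped by a small margin, between si-NC replicate 2 and si-METTL3 replicate 1. Snrpb2, whose protein is the partner of the Snrpa1 product on that RNA, stood at 46.1, 47.7 and 47.6 CPM against 43.6, 47.9 and 49.3, a log2 fold change of -0.01 (SE 0.08, adjusted p = 0.958).

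All 3 subunits of SF3A fell, and 2 of the 6 SF3B subunits that the symbol rule reaches. Sf3a1, the scaffold of SF3A, had 342.5, 304 and 346 CPM in the control libraries against 281, 257 and 273 after knockdown (log2 fold change -0.29, SE 0.08, adjusted p = 0.0394). Sf3a2, encoding a zinc finger subunit, had 61.6, 53.6 and 64.8 CPM against 44.02, 48.8 and 47.4 (-0.36, SE 0.10, adjusted p = 0.0401). Sf3a3 had 121, 115 and 129 CPM against 94.2, 99.8 and 96.8 (-0.33, SE 0.07, adjusted p = 0.0223). The groups did not overlap in any of these 3 genes.

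In SF3B, Sf3b4, whose protein contacts pre-mRNA near the branch point, had 130.5, 112 and 134 CPM in the control libraries against 96.8, 92.2 and 87.5 after knockdown (log2 fold change -0.45, SE 0.09, adjusted p = 0.0183). Sf3b5, the smallest SF3B subunit, had 39.9, 38.8 and 46.9 CPM against 27.6, 33.2 and 26.7 (-0.52, SE 0.12, adjusted p = 0.0282). Both genes were lower in every si-METTL3 library than in any si-NC library. Sf3b2, the SF3 gene with the highest mean FPKM (193), had 784.5, 664 and 811 CPM in the control libraries against 744, 673 and 666.5 after knockdown, and its groups overlapped (-0.12, SE 0.09, adjusted p = 0.403). Sf3b3 and Sf3b6 had log2 fold changes of -0.26 and -0.25, with adjusted p of 0.0988 and 0.148.

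Sf3b1, which holds the branch point adenosine and is mutated in several blood cancers, had the largest rise of the group, and it did not pass the test. It had 254.5, 421 and 221 CPM in the control libraries against 344, 444 and 467 after knockdown (log2 fold change 0.48, SE 0.24, adjusted p = 0.201). The overlap came from si-NC replicate 2, which lay far above the other si-NC libraries, and without that library the value was 0.81 (adjusted p = 0.00854). Without si-NC replicate 3 it was 0.28 (adjusted p = 0.453). SF3 genes summed to 592.6 ± 18.2 FPKM in si-NC and 544.9 ± 10.9 in si-METTL3.

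**Figure D2:**
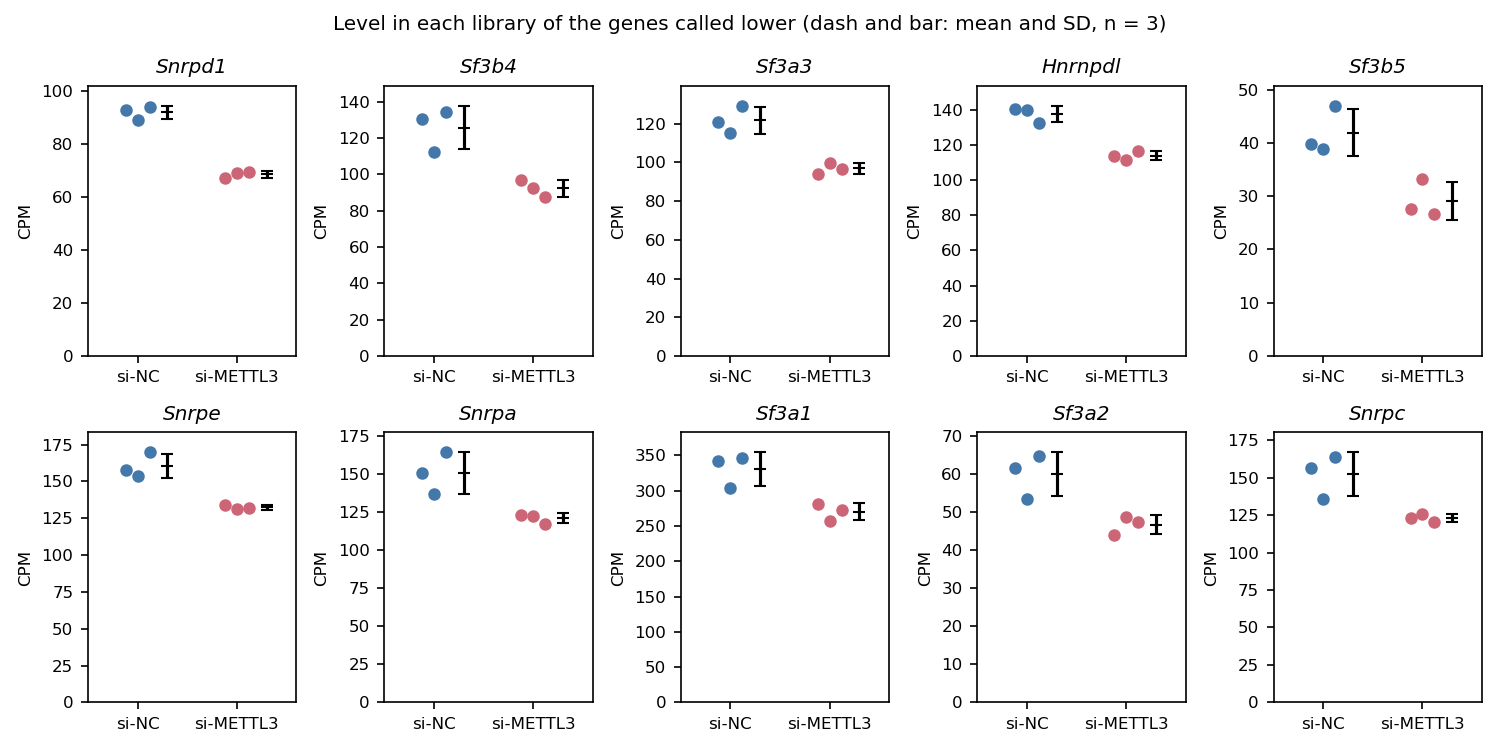
CPM of the 10 genes that fell, in each library (points; left si-NC, right si-METTL3), with mean and SD beside them; every y axis starts at 0. In each of the 10 genes the highest si-METTL3 library lies below the lowest si-NC library, as in Snrpd1 with 69.4 against 89.2 CPM. The genes were chosen for their difference in these same libraries, and 21.3% of all tested genes separate this way.

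The promoters of the genes that fell are shown to let their letters be compared. RefSeq (GRCm38.p6) lists a start for 46 of the 52 genes, with 63 promoters in all. Of the 10 genes that fell, 7 have a start listed and 6 have exactly 1 promoter. Below are the 120 bases before those starts, 5′ to 3′ along the gene, with the letters CCGGAAG or, on the other strand, CTTCCGG in capitals. This is the core recognised by ETS family factors.
Sf3a1: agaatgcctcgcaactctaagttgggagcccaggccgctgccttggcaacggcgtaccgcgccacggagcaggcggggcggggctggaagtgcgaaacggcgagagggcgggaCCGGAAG
Sf3a2: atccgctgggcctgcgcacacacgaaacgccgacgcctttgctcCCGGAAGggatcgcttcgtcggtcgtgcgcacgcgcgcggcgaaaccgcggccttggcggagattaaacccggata
Sf3a3: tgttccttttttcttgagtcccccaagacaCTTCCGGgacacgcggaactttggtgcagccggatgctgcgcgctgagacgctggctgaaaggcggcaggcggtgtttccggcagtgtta
Snrpc: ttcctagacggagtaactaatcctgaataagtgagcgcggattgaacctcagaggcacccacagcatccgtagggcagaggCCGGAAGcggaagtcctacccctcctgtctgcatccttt
Snrpe: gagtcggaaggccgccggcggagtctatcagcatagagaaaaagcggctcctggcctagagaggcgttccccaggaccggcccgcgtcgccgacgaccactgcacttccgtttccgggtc
Hnrnpdl: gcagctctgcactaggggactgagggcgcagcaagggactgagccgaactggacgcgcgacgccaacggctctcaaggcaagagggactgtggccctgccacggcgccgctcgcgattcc

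They lie at chr11:4160234-4160353 (plus strand, Sf3a1), chr10:80798615-80798734 (plus, Sf3a2), chr4:124714741-124714860 (plus, Sf3a3), chr17:27839967-27840086 (plus, Snrpc), chr1:133610281-133610400 (minus, Snrpe) and chr5:100039223-100039342 (minus, Hnrnpdl). All 3 SF3A genes and Snrpc held the motif, its first base at -7 in Sf3a1, -76 in Sf3a2, -90 in Sf3a3 and -39 in Snrpc. Over the 250 bases before each start and both strands, it occurred in 30.2% of the 63 promoters and in 6.91% of all 32851 promoters of the table. By role it occurred in 9 of 17 snRNP and SF3 genes with a promoter, 4 of 11 SR genes and 2 of 18 hnRNP genes. Of those 9 genes, only Sf3a1, Sf3a2, Sf3a3 and Snrpc were among the genes that fell. The promoters of the whole table were not matched to the 63 for expression level. GGGCGG, the core of SP and KLF sites, occurred in 66.7% of the 63 promoters against 32.7% of all, and CCAAT, bound by NF-Y, in 42.9% against 33.9%. CACGTG, the MYC and MAX E-box, occurred in 7.94% against 6.02%, and TATAAA, the TATA box, in 9.52% against 12.4%. None of these motifs contains another. A match describes letters in this window, and no binding was measured in these libraries.

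No SR gene passed the test in either direction with edgeR or DESeq2, and 1 each way had an unadjusted p under 0.05. Srsf2, encoding SC35 and the SR gene with the highest mean FPKM (133), had the largest fall of the group. Its CPM were 164, 146 and 170.3 in the control libraries against 139, 130.5 and 136 after knockdown (log2 fold change -0.25, SE 0.08, adjusted p = 0.0676), with no overlap between the groups. It was called lower by limma on log2(FPKM + 1), at -0.40 (adjusted p = 0.0109), and without si-NC replicate 2, at -0.31 (adjusted p = 0.00941), and correcting for length and GC content gave -0.12 (adjusted p = 0.111). Srsf3 showed no overlap either, at -0.15 (SE 0.07, adjusted p = 0.146). Srsf1, encoding the founding SR protein ASF/SF2, had the largest rise, with 157, 179 and 149 CPM in the control libraries against 171, 194 and 207 after knockdown (0.24, SE 0.10, adjusted p = 0.141). Its value was -0.12 once libraries were corrected for transcript length and GC content. Srsf5 had 111, 119 and 111 CPM against 123, 137 and 135 (0.21, SE 0.07, adjusted p = 0.0898). The other 6 tested SR genes lay between -0.13 and 0.19. SR genes summed to 755.7 ± 17.1 FPKM in si-NC and 725.1 ± 11.9 in si-METTL3, the smallest relative difference among the role groups.

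The hnRNP genes had the largest summed FPKM of the role groups. Their median FPKM of 69.2 was below the 72.5 of the tested SR genes. Of the 20, 15 had positive log2 fold changes, or 12 after the length and GC correction. Of all tested genes, 6940 of 13082 were positive without that correction and 5840 of 13075 with it. Hnrnpf, whose protein binds G-rich sequences and which had the highest mean FPKM of all 52 genes (524), had 1028, 930.3 and 982 CPM in the control libraries against 1033, 1035 and 1071 after knockdown. The groups did not overlap, by a margin of a few CPM, and the log2 fold change was 0.09 (SE 0.06, adjusted p = 0.326). Hnrnpl, a regulator that binds CA repeats, had 361, 316 and 409 CPM in the control libraries against 445, 409.5 and 433 after knockdown (0.25, SE 0.10, adjusted p = 0.129), and limma on log2(FPKM + 1) called it higher (adjusted p = 0.0444). Hnrnpa1, an antagonist of SR proteins, had 822.5, 878 and 803 CPM against 876, 977 and 1033 (0.20, SE 0.08, adjusted p = 0.117). Of these 3 genes, Hnrnpa1 alone had overlapping groups. Summed FPKM of the hnRNP genes was 2976 ± 56.6 in si-NC and 3304 ± 117 in si-METTL3, again without overlap. The sum is carried by a few genes, since Hnrnpf, Hnrnpa1 and Hnrnpk alone had mean FPKM of 524, 462 and 432.

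Hnrnpdl was the hnRNP gene that fell. Its protein is a relative of AUF1, and it had 140.4, 139.8 and 132 CPM in the control libraries against 114, 111 and 116.5 after knockdown (log2 fold change -0.27, SE 0.06, adjusted p = 0.0281). Both groups were narrow. Hnrnpa3 had the largest rise, with 144, 246 and 129.7 CPM in the control libraries against 189.7, 276 and 282 after knockdown (0.53, SE 0.26, adjusted p = 0.199). As in Sf3b1, si-NC replicate 2 lay far above the other si-NC libraries, and without it the value was 0.86 (adjusted p = 0.0139). Without si-NC replicate 3 it was 0.33 (adjusted p = 0.445). The same library was the highest si-NC library in Hnrnph1 (261, 387 and 237 CPM), Hnrnph2 (79.2, 127 and 65.8) and Hnrnpu (98.8, 158 and 85.6), whose log2 fold changes were 0.24, 0.30 and 0.25 with SEs of 0.22 to 0.25. Hnrnpc and Hnrnpa2b1, whose proteins have been linked to m6A, had values of -0.11 (SE 0.08, adjusted p = 0.373) and 0.17 (SE 0.10, adjusted p = 0.278).

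**Figure D3:**
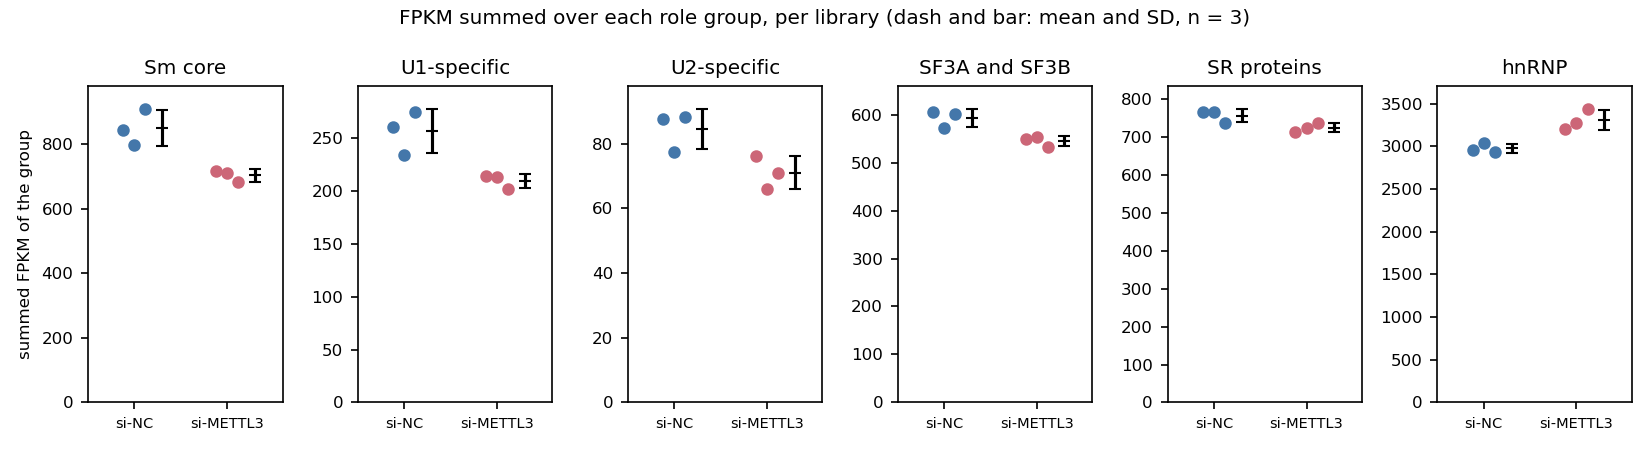
Deposited FPKM summed over the genes of each role group, in each library (points), with mean and SD beside them; y axes start at 0 and differ between panels. The Sm core falls from 848.6 to 702.7 in the mean, and the hnRNP sum is higher in si-METTL3, at 3304 against 2976.

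Log2 fold changes were higher for longer transcripts in these libraries. Across the 51 tested genes, log2 fold change and the log2 length of the longest protein-coding transcript had a Pearson r of 0.45 (Spearman rho 0.53), and across the 13075 tested genes with a length 0.26 (rho 0.35). Genes share their libraries and are not independent replicates, so these are descriptions. Per doubling of length, expression shifted by -0.125, 0.04 and -0.15 on the log2 scale in the si-NC libraries and by 0.03, 0.09 and 0.11 in si-METTL3, so that si-NC replicate 2 lay nearer to the si-METTL3 libraries than to its own group. The Sm core genes are short, with a median of 1108 bases, and the hnRNP genes longer, with a median of 2908.

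Once length and GC content had been corrected for in each library, 12 genes were lower (23.5% of 51, where 17.8% of all tested genes were) and 6 were higher (11.8%, where 10.1% were). Of the 10 genes that fell without the correction, 8 remained lower. Snrpe kept its value, at -0.27 against -0.28, but not its call (adjusted p = 0.14), and Snrpc went from -0.31 to -0.15 (adjusted p = 0.0787). The 6 higher genes were Hnrnpa1, Hnrnpa2b1, Hnrnpa3, Hnrnpf, Hnrnpl and Srsf5. Sf3b3, Snrpb, Snrpd3 and Srsf10 were the 4 added to the lower genes. The value of Sf3b1 shrank to 0.15 (adjusted p = 0.196), that of Hnrnpa3 to 0.22, and the median of the hnRNP genes to 0.06. The correction gave each gene the length of its longest protein-coding transcript, 21452 bases for Hnrnpr. In si-NC replicate 1 Hnrnpr had 3501 counts at 32.2 FPKM, and Srsf11, listed at 3106 bases, had 2875 counts at 32.8 FPKM. The length used for Hnrnpr was thus longer than the one behind its FPKM, and corrected values of such genes are uncertain. Sf3b5, at -0.67, and Sf3a1, at -0.42, lay further from 0 than without the correction. The median of the snRNP and SF3 genes was -0.20, and that of all tested genes -0.04.

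**Figure D4:**
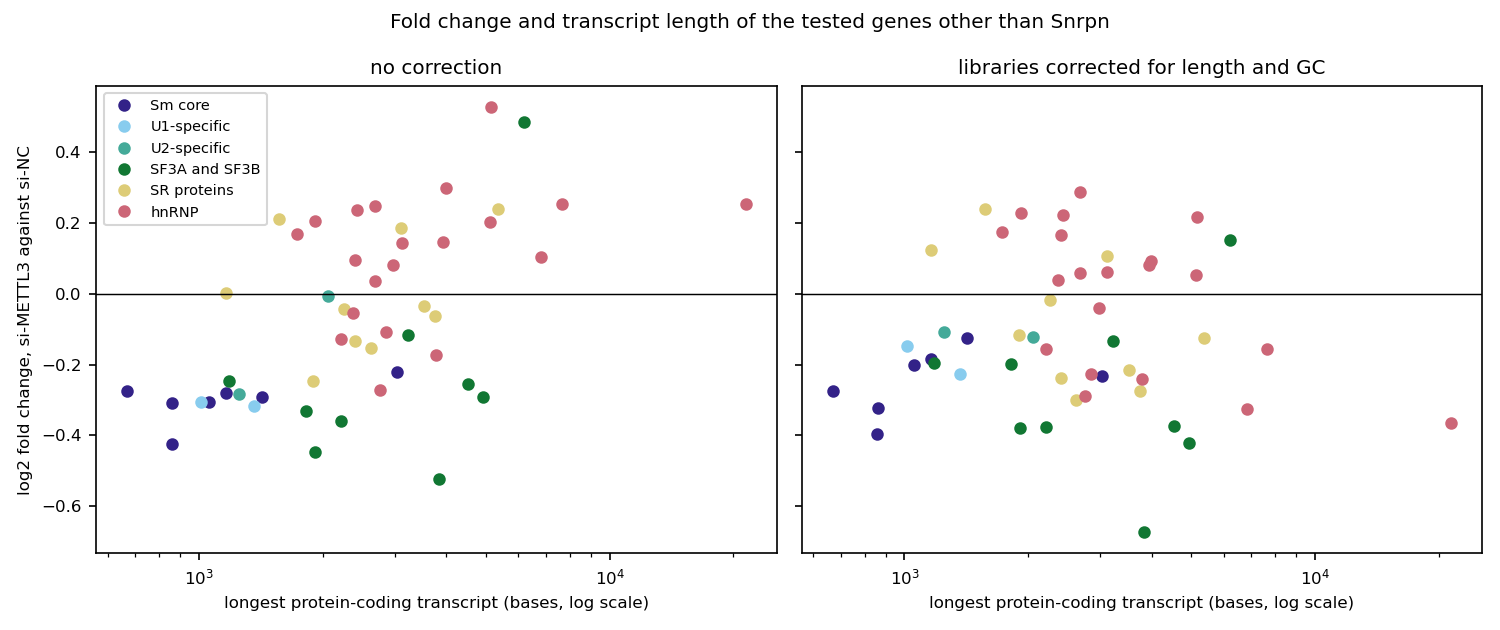
Log2 fold change (y axis) against the length of the longest protein-coding transcript in bases (x axis, log scale) for the 50 tested genes other than Snrpn, coloured by role, without correction (left) and with the length and GC correction (right). On the right the long hnRNP and SF3 genes lie nearer to or below 0, such as Sf3b1, which moves from 0.48 to 0.15, while the Sm core points stay below 0.

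Other genes of splicing were read from lists by function. Of 163 tested genes of those lists, 23 fell (14.1%, where 10.2% of all tested genes did) and 4 rose (2.45%, where 8.67% did). With 1 library left out, between 4 (si-METTL3 replicate 2) and 51 (si-NC replicate 2) fell and between 0 (si-NC replicate 1 or si-METTL3 replicate 2) and 32 (si-NC replicate 2) rose. Without si-NC replicate 2, 18.9% of all tested genes fell and 17.9% rose. Of the genes named below, Prpf31, Eif4a3, Rnps1 and Phax were called with each of the 6 libraries left out, and the others in 1 to 5 of those fits. In the tri-snRNP and U1 list 5 of 18 fell and 0 rose: Prpf31, which bridges U4 and U5 and is mutated in retinitis pigmentosa, by 0.71 (SE 0.08, adjusted p = 0.00241), the U4/U6 protein gene Prpf3 by 0.35 (adjusted p = 0.0129) and Snu13 by 0.41 (adjusted p = 0.0373). Prpf31 had 7386, 5587 and 7937 counts in the control libraries against 4095, 2779 and 3004 after knockdown, or 204 ± 16.5 against 125 ± 3.21 CPM (SD, n = 3).

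In the exon junction complex list 5 of 10 fell and 0 rose. The RNA helicase Eif4a3, the core that clamps the complex on RNA, fell by 0.68 (SE 0.09, adjusted p = 0.00509), Rnps1 by 0.53 (adjusted p = 0.00588) and Rbm8a, encoding Y14, by 0.66 (adjusted p = 0.0104). Eif4a3 went from 305 ± 32.5 to 189.8 ± 8.92 CPM. In the list of snRNP assembly factors 3 of 17 fell and 0 rose. These were Phax, the export adaptor of snRNAs, by 0.60 (SE 0.09, adjusted p = 0.00699), Smn1, which loads the Sm ring, by 0.45 (adjusted p = 0.0154), and Prmt5, which methylates Sm proteins, by 0.51 (adjusted p = 0.0191).

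Of the U2AF and branch point factors 3 of 13 fell and 0 rose: U2af1, which reads the 3′ splice site AG, by 0.37 (adjusted p = 0.0222), Sf1, the branch point binding protein, by 0.36 (adjusted p = 0.0237), and Phf5a, itself a subunit of SF3B that the symbol rule does not reach, by 0.41 (adjusted p = 0.0248). The LSm list had 1 of 10 lower (Lsm1, which acts in mRNA decay, by 0.40) and the PRP19 and catalytic list 1 of 23 (Rbm22, by 0.31). Their shares, 10% and 4.35%, did not exceed the 10.2% of all tested genes that fell. In the minor spliceosome 2 of 10 were lower, Zcrb1 and Scnm1, each by 0.48. No gene of these 3 lists rose.

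The 4 genes that rose were on the lists of SR-related genes and of other regulators of alternative splicing, at shares of 6.45% and 6.25% that lie below the 8.67% of all tested genes. Of 31 SR-related genes and SR kinases, 4 fell and 2 rose, Rnps1 and Luc7l (by 0.44, adjusted p = 0.024) among the lower and Rsrc1 (0.83, adjusted p = 0.0109) among the higher. Of 32 other regulators 0 fell and 2 rose, the epithelial regulator Esrp2 by 0.71 (SE 0.12, adjusted p = 0.0105) and Ewsr1 by 0.22 (adjusted p = 0.0404). Their median of 0.26 was -0.08 after the length and GC correction, and that of the SR-related genes went from 0.16 to -0.02.

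The lncRNA table of the same libraries holds 50 transcripts of 17 of the 52 genes, all annotated as processed transcripts without a coding sequence. None of the 26 tested transcripts passed the test, and 0.733% of the 5728 transcripts tested in that table did (edgeR, adjusted p under 0.05, either direction). At an unadjusted p under 0.05 there were 4, and the share of all transcripts at that threshold is not given here. DESeq2 called 2, of Srsf2 and Snrpg, where it called 233 of all 5728 transcripts. The sources used here do not say how reads that match both a coding and a noncoding transcript were divided. Transcript structures are those of GENCODE M21 (GRCm38).

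The noncoding transcript with the most counts was ENSMUST00000123371 of Hnrnph1, with 896, 1489 and 751 counts in the control libraries against 1180, 1159 and 1581 after knockdown (log2 fold change 0.63, SE 0.29, adjusted p = 0.356). ENSMUST00000177429 of Srsf2 had 1011, 752 and 1135 counts against 563, 406 and 496 (-0.69, SE 0.17, adjusted p = 0.137). Every si-METTL3 library had fewer counts and a lower FPKM of it than any si-NC library (34.1 to 38.0 FPKM against 47.8 to 57.7), and it passed the test without si-NC replicate 2 (adjusted p = 0.0434). ENSMUST00000125814 of Srsf5 stood at 689, 513 and 626 counts against 585, 412 and 399 (-0.10, SE 0.17, adjusted p = 0.816). ENSMUST00000159117 of Hnrnpu had 395, 746 and 333 counts against 373, 494 and 462 (0.17, SE 0.34, adjusted p = 0.854), with si-NC replicate 2 as the highest library.

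ENSMUST00000030438 of Srsf10 had 643, 809 and 679 counts in the control libraries against 337, 393 and 419 after knockdown (log2 fold change -0.58, SE 0.20, adjusted p = 0.236). In the mRNA table Srsf10 had 115, 147 and 97.1 CPM in the control libraries against 91.4, 124 and 128 after knockdown (-0.06, SE 0.18, adjusted p = 0.824), with overlapping groups, and the length and GC correction gave -0.28 (adjusted p = 0.023). The noncoding transcript extends exon 2 by 62 bases (GRCm38 chr4:135858410-135858471, plus strand) and adds an exon of 360 bases (chr4:135858842-135859201). No base of either lies in an annotated coding sequence or UTR, and all 4 protein-coding transcripts leave both out. The sequences around the end of the shared part of exon 2 are printed with the bases after the shared part in capitals, since they show where the transcripts part.
Srsf10 noncoding: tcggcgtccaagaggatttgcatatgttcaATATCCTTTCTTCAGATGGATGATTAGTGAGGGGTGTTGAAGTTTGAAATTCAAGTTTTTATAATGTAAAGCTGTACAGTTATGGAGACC
Srsf10 coding: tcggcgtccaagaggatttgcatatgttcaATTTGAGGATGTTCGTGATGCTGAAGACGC

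Read in the frame of the coding transcripts, the noncoding sequence reaches its first stop codon, TGA, 38 bases after the last shared base. A shorter noncoding transcript with the same extension, ENSMUST00000129718, had 114, 80 and 64 counts in the control libraries against 11, 35 and 0 after knockdown. It did not pass the edgeR test (log2 fold change -2.11, SE 0.99, adjusted p = 0.365). ENSMUST00000154447 of Srsf10, which ends at chr4:135858801, had 96, 175 and 75 counts against 102, 94 and 107 (0.11, adjusted p = 0.909). ENSMUST00000129198 of Srsf10 also had a positive value (0.94, adjusted p = 0.408).

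The share of a gene's counts taken by its noncoding transcripts does not depend on the library total. Neither the shares nor the fold changes of noncoding transcripts were corrected for the length trend described above. ENSMUST00000177429 of Srsf2 has 433 bases against 1899 for the longest protein-coding transcript, and ENSMUST00000233209 of Srsf3 518 against 2618. The part of that trend in the shares was not tested. For Srsf10 it was 17.7%, 19.75% and 18.8% in the control libraries against 14.2%, 16.4% and 14.9% after knockdown, and for Srsf2 14.9%, 14.55% and 15.4% against 11.3%, 12.2% and 12.9%. For Hnrnph1 it was 18.4%, 21.3% and 18.6% against 22.5%, 23.75% and 22.7%. Of the 10 genes with enough counts, the shares in si-METTL3 lay below all those in si-NC in 4 (Srsf2, Srsf5, Srsf9 and Srsf10), as in 7.95% of the 2516 genes with enough counts in both tables. They lay above in 3 (Hnrnph1, Snrpg and Srsf3), as in 9.26% of those genes, and overlapped in Hnrnpdl, Hnrnpu and Sf3a3. None of the 10 genes tested passed the test on the ratio of noncoding to mRNA counts, which 0.0397% of 2516 genes passed (limma with trend on the log2 ratio, adjusted p = 0.422 for Srsf10 and 0.448 for Srsf2 and Hnrnph1). At an unadjusted p under 0.05 there were 3 of the 10, Srsf10, Srsf2 and Hnrnph1, and 0 or 1 whenever a library was left out. The share of all 2516 genes at that threshold is not given here.

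The noncoding transcripts of Snrpg differed in direction. ENSMUST00000204768 had 4, 0 and 0 counts in the control libraries against 38, 42 and 17 after knockdown (adjusted p = 0.0996), and ENSMUST00000204380 had 112, 91 and 170 against 66, 73 and 66 (adjusted p = 0.418). Together they had 116, 91 and 170 counts against 104, 115 and 83, not scaled to depth. As a share of the gene's counts that was 5.63%, 5.53% and 6.38% against 7.04%, 9.16% and 6.58%, higher in every si-METTL3 library (ratio test, adjusted p = 0.544).

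**Figure D5:**
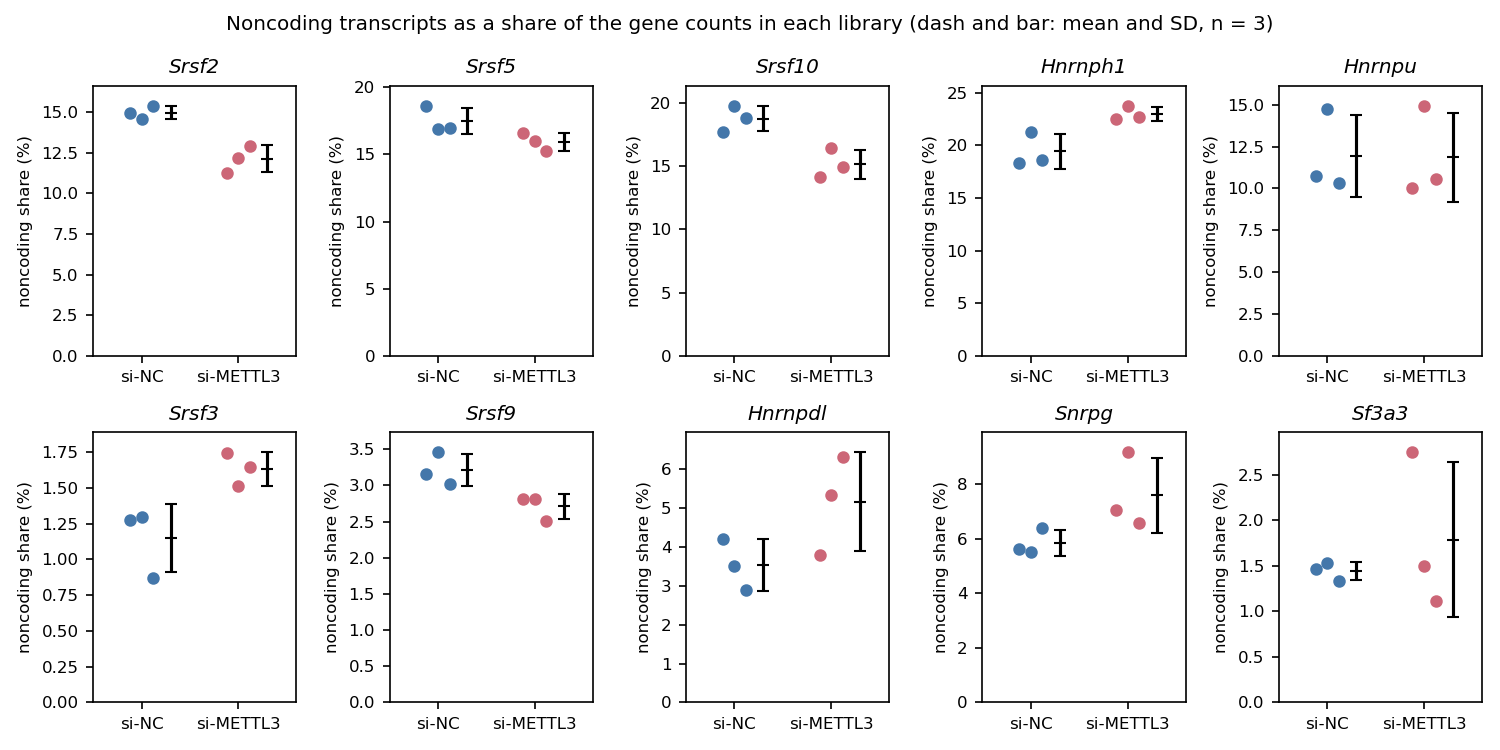
Counts of noncoding transcripts as a percentage of all counts of the gene (y axis, from 0) in each library, for the 10 genes with enough counts, with mean and SD. Srsf2, Srsf5, Srsf9 and Srsf10 are lower in every si-METTL3 library than in any si-NC library, Hnrnph1, Snrpg and Srsf3 are higher, and Hnrnpdl, Hnrnpu and Sf3a3 overlap, Hnrnpu with 11.9 ± 2.43% in si-NC and 11.85 ± 2.67% in si-METTL3.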

How the data were processed

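The authors deposited whole-number counts and FPKM values for each of the 6 libraries in an mRNA table (genes) and a lncRNA table (transcripts), per the file headers. The authors used fastp, Bowtie2, StringTie and RSEM with the build mm9, per the submitters' processing notes, which give no versions. The authors' deposited log2 fold changes and p-values come from a test not given in the sources used here. The counts were tested with edgeR 4.0.16 (R 4.3.3): TMM normalization, filterByExpr, quasi-likelihood test, Benjamini-Hochberg adjustment over each whole table, threshold 0.05. The SE of a log2 fold change is its size over the root of edgeR's F statistic. CPM are counts per 1000000 of effective library size; marker CPM use library totals. The noncoding to mRNA ratio used limma 3.58.1 with trend (pseudocount 0.5, mean of at least 10 counts in each table). The length and GC correction fitted each library's log2 level with splines (4 degrees of freedom each) on GENCODE M21 lengths and GC content, found for all 52 genes. Alternatives were DESeq2 1.42.0, RLE size factors, no filter, limma-voom, limma on log2(FPKM + 1) or log2(FPKM + 0.1), a replicate block and each library left out. Tests were tried on simulated data. The genes, role groups and other lists were chosen with earlier results of these data known. Named were all genes that fell, the highest by mean FPKM and the largest rise and fall of each role group, up to 3 called genes of each list, and the 5 noncoding transcripts with most counts; Srsf3, Srsf5, Hnrnpl, Hnrnpa1, Hnrnpk, Hnrnph1, Hnrnph2, Hnrnpu, Snrpg and other genes named beside these were chosen after their values were seen.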

Additional observations from a re-analysis of the deposited data

How the results depend on the processing

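Between 10 and 12 genes were lower with DESeq2, RLE size factors, no filter on low counts, limma-voom, the length and GC correction and limma on log2(FPKM + 1) or log2(FPKM + 0.1), and 8 with limma on unfiltered FPKM. No gene was higher with DESeq2, RLE, no filter or limma-voom, 1 (Hnrnpl) was with limma on log2(FPKM + 1) or log2(FPKM + 0.1), and 6 were with the length and GC correction. Leaving out each library in turn gave 0 to 10 higher and 1 to 21 lower genes, 0 to 1 noncoding transcripts, and 0 to 32 higher and 4 to 51 lower of the other splicing genes. The highest of these counts came without si-NC replicate 2, where 17.9% of all tested genes were higher and 18.9% lower. Noncoding transcripts called were 2 with DESeq2, which called 233 of all 5728, and 1 with no filter on low counts, which called 150 of 15994. Of the other splicing genes, 2 were higher with no filter on low counts and 2 with limma on unfiltered log2(FPKM + 1). With the length and GC correction 7 of the 163 were higher and 36 lower, where 10.1% of all tested genes were higher and 17.8% lower. With the replicate number as a block, 2 of the 51 genes (Sf3b4 and Snrpd1) were lower, and 2 of the other splicing genes were higher and 11 lower. Shares of all tested genes are given here for the main fit, the length and GC correction and the fit without si-NC replicate 2. For the block and the other mRNA fits they are not, so a drop particular to these genes cannot be told from a drop over all genes. Deviations of same-numbered libraries from their group means had r of 0.071, 0.2 and -0.31. With 3 libraries in each group these values cannot show whether the numbers pair the libraries. Over 763 values of single genes, 20 changed sign, all of genes that had not passed the test, 53 lost and 41 gained a call. With the length and GC correction, those that changed sign were Srsf1 (-0.12), Hnrnpr (-0.37), Hnrnpk (-0.0418), Hnrnpd (-0.32), Hnrnpu (-0.16) and Hnrnpab (0.0384). The lengths used are those of the longest protein-coding transcript, such as 21452 bases for Hnrnpr, and may exceed those of the transcripts present. Srsf6 was 0.0234 with limma on log2(FPKM + 1), filtered or not, and 0.0236 on log2(FPKM + 0.1). Srsf9 was -0.0071 with no filter on low counts. Over the fits that each left out 1 library, Srsf4 ran from -0.0946 to 0.0038, Srsf6 from -0.0889 to 0.0006, Srsf10 from -0.2212 to 0.1057, Srsf9 from -0.1012 to 0.0899, Snrpb2 from -0.0465 to 0.0224 and Hnrnpa0 from -0.076 to 0.1691. The cause of these changes was not tested. Srsf12, with 0 counts in all libraries, could not be tested at this depth.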
